A study of Mus musculus with 6 samples.

Results

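The genes described here are 10 components of WNT signalling, taken by name: the ligands Wnt3 and Wnt5a, the enhancers Rspo2 and Rspo3, the secreted inhibitors Sfrp1, Sfrp2 and Dkk1, and the nuclear factors and target genes Axin2, Lef1 and Tcf7. All probe sets that the platform annotation assigns to them were read. Of the 10 genes, 9 had a probe set, of 18194 genes with 1 in the whole table; Tcf7 had no annotated probe set and is not analysed here. The 9 genes had 21 probe sets, of which 19 were above background on at least 1 array, 13 on all arrays and 2 on none.

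Forelimb buds of CD1 mouse embryos at E10.5 were divided across into proximal and distal pieces, and total RNA of each piece was hybridised to 1 Affymetrix array per condition, 6 arrays in all. The dKO buds carried the genotype Prx1-Cre; Ring1A-/-; Ring1Bfl/fl, in which RING1A and RING1B, the E3 ligases of Polycomb repressive complex 1, are both removed. Prx1-Cre acts in limb mesenchyme, so the ectoderm that covers the bud is not expected to lose Ring1B. The RA buds came from wild type embryos whose mothers received 100 mg/kg all-trans retinoic acid by gavage at E10.25. The control buds are called wild type in one label and Ring1A-/- in the genotype label and the series design. If the genotype label holds, the loss of Ring1A is shared by dKO and control. RA exposure and the Ring1A genotype then cannot be told apart when RA is set against control. If the control is wild type, dKO against control includes the loss of Ring1A as well. The number of embryos behind an array is not given.

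WNT ligands are secreted lipid-modified proteins that bind Frizzled receptors. In the canonical branch they stabilise beta-catenin, which then acts with LEF1 and TCF factors on target genes such as Axin2. R-spondins raise the amount of receptor at the cell surface, SFRP proteins bind the ligands, and DKK1 blocks the LRP co-receptors. In the limb bud, WNT signals from the ectoderm, WNT3 among them, maintain the apical ridge, and WNT5A from the distal mesenchyme directs outgrowth.

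Values are MAS5 signals on a linear scale, and the median signal of each array, between 59.5 and 76.1, served as its floor. Each gene was read from its brightest probe set unless another is named, and levels are not compared between genes. With 1 array per combination of part and condition, no difference between 2 arrays has a replicate check. An additive limma fit with condition and part as terms was therefore the only test. What is left over in it, with 2 degrees of freedom, is how far the pairs of arrays disagree on an effect, and not a spread between embryos. The proximal RA array stood apart: it correlated with the others at r of 0.927 to 0.951 across genes, where each of the other 5 had its closest partner at 0.974 to 0.986. It also had the highest 3′/5′ signal ratios, 1.6 for GAPDH and 1.95 for actin, against 1.28 to 1.39 and 1.52 to 1.72 on the other 5 arrays. Both RA arrays lacked Xist signal, with 12.9 and 29.5 against at least 3020 on the dKO and control arrays, and had Y-linked Eif2s3y at 2780 and 3060 against at most 12.3. Their spike-in control BioB was also lower, at 110 and 123 against at least 1080. RA exposure cannot be told apart from these differences between the arrays. Rnf2, which encodes RING1B, had signals of 2150 proximally and 1890 distally in dKO, 1940 and 2080 in RA, and 2040 and 2070 in control, and Ring1 had 402 and 578 in dKO, 420 and 245 in RA, and 624 and 968 in control. These signals do not show the loss of either transcript, and whether the probe sets lie in the deleted exons is not given, so they do not check the genotype labels.

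All 9 genes were above the floor on all 6 arrays, where single arrays had 10888 to 11377 of 18194 genes above it. In the proximal part, 1 of 9 was 2-fold or more lower in dKO than in control (Rspo3) and 0 were higher, where 0.363% of 11581 genes were lower and 4.07% higher. In the distal part, 1 of 9 was lower in dKO (Rspo3) and 1 higher (Sfrp1), against 0.524% and 5.32% of 11647 genes. Rspo3 was thus lower in both parts, as were 0.185% of 11349 genes, and 0 of 9 were higher in both, where 2.93% of all genes were. In RA, 2 of 9 were lower proximally (Wnt5a and Rspo2) and 1 distally (Rspo3), with 0 higher in either part. The shares of all genes were 6.8% lower and 3.69% higher proximally, and 2.13% lower and 2.16% higher distally. The median log2 difference of the 9 genes was -0.04 proximally and 0.09 distally in dKO, and -0.4 proximally and -0.32 distally in RA, where the medians over all genes lay between -0.04 and 0.02.

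Between the parts, 1 of 9 genes was higher proximally in control (Sfrp1) and 1 lower (Wnt5a), against 1.35% and 1.4% of 11392 genes. In RA, 2 were higher proximally (Sfrp1 and Rspo3) and 3 lower (Wnt5a, Rspo2 and Wnt3), against 4.4% and 6.16% of all genes. In dKO, 0 of 9 differed 2-fold, where 0.515% of genes were higher and 0.721% lower. In the limma fit over 12148 genes, 0 of the 9 genes passed an adjusted p of 0.05 for dKO, RA or part, where 2.33%, 0.543% and 0% of all genes did. At an unadjusted p under 0.05 there were 3, 4 and 5 of 9, against 11.6%, 16.7% and 9.52% of all genes. Leaving out arrays changed the count for dKO: without both RA arrays, or without the proximal one alone, 6 of 9 genes passed (Wnt5a, Rspo2, Rspo3, Sfrp1, Dkk1 and Lef1), with the log2 values as before. Those fits have 1 residual degree of freedom, and they called 1448 and 1437 genes in all, against 283 with all arrays.

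**Figure D1:**
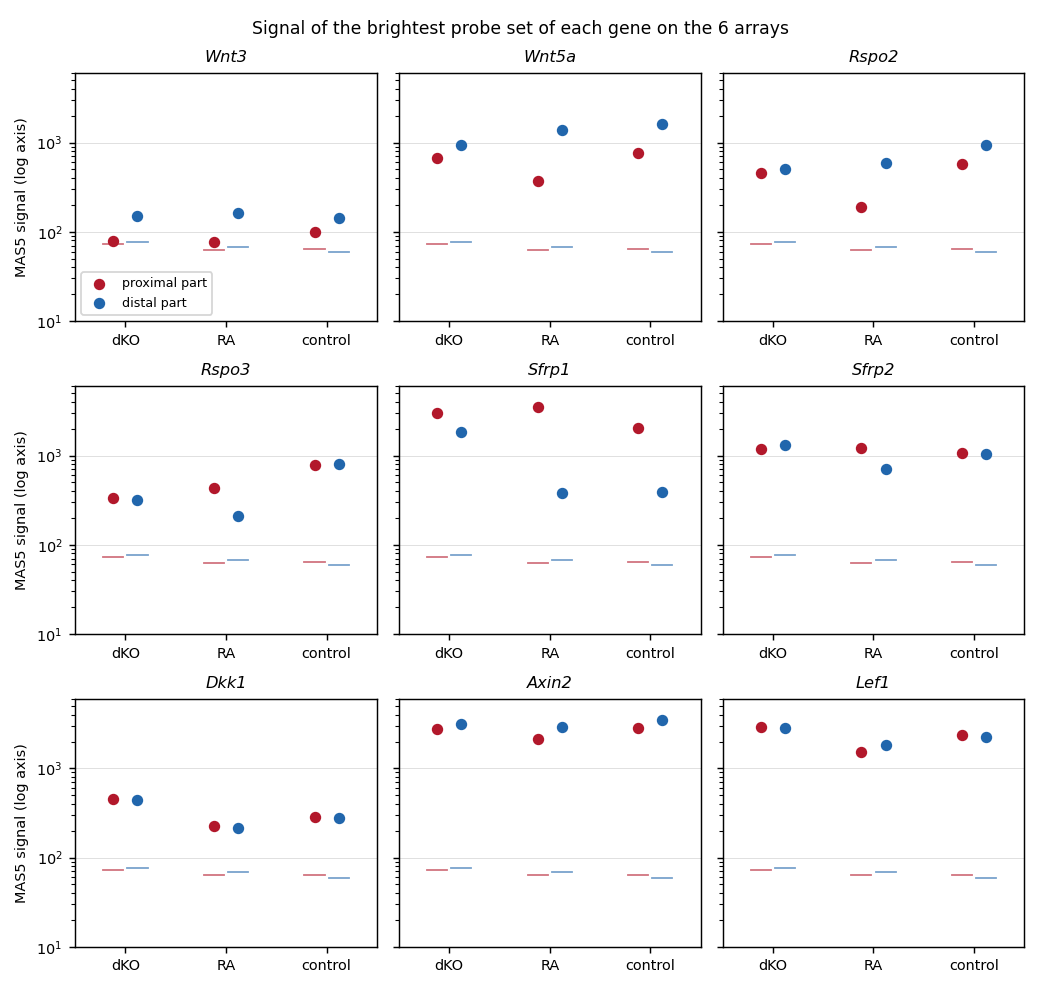
MAS5 signal on a log axis of the brightest probe set of each of the 9 genes, in dKO, RA and control buds (left to right), with the proximal part in red and the distal part in blue; each point is 1 array and short lines mark the array floors. Sfrp1 is low on the distal RA and distal control arrays only, at 377 and 392, and Rspo3 is highest in both control arrays, at 792 and 793.

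**Figure D2:**
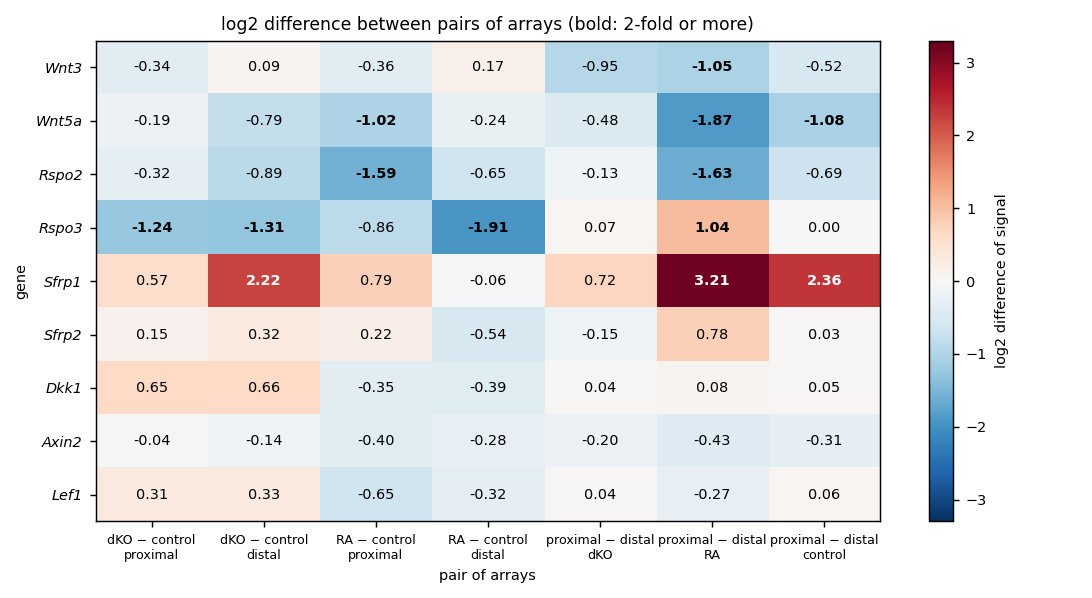
Log2 difference of signal for each gene (rows) in the 7 pairs of arrays (columns), red for higher and blue for lower in the first-named condition or part, with differences of 2-fold or more in bold. Rspo3 is at -1.24 and -1.31 in dKO, and Sfrp1 is at 2.22 in the distal part of dKO.

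Wnt5a (chr14:28504543-28527448, GRCm38.p6 from the RefSeq gene table, as for the loci below), a ligand that acts largely through the beta-catenin-independent branch, was higher distally in each condition. Its signal was 669 proximally and 935 distally in dKO, 375 and 1371 in RA, and 763 and 1617 in control. Every proximal array was thus below every distal array, and the distance between the parts was widest in RA and narrowest in dKO. The proximal over distal log2 difference was -0.48 in dKO, -1.87 in RA and -1.08 in control. Across all conditions the limma estimate was -1.15 (SE 0.26, adjusted p = 0.228). Without both RA arrays it was -0.78 (adjusted p = 0.00532), and without the dKO arrays -1.48 (adjusted p = 0.000175). Without the control arrays it was -1.18 (adjusted p = 0.0393).

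The 4 probe sets of Wnt5a gave the same direction for most pairs. In control all 4 were lower proximally, between -1.11 and -1.02 on the log2 scale, and in RA all 4, between -2.02 and -1.53. In dKO 3 were lower and 1 higher, between -0.49 and 0.12. Set against control, Wnt5a in the distal dKO array was lower on 4 of 4 probe sets (-1.32 to -0.47), and on the proximal RA array also on 4 of 4 (-1.09 to -0.60). The proximal dKO and distal RA arrays differed less, with 3 of 4 probe sets lower in each (-0.21 to 0.27 and -0.39 to 0.40). Probe sets share the RNA of an array, so their agreement is no replicate of the embryos. In limma the effect on Wnt5a was -0.49 for dKO (SE 0.32, adjusted p = 0.74) and -0.63 for RA (SE 0.32, adjusted p = 0.365). Without both RA arrays the adjusted p for dKO was 0.0376.

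Wnt3 (chr11:103774175-103818021), the ectodermal ligand needed for the apical ridge in the mouse, was dim on all arrays. Its only probe set, of a type that can also bind related transcripts, had signals of 78.4 proximally and 152 distally in dKO, 77.5 and 161 in RA, and 99.4 and 143 in control. The 3 proximal arrays lay below the 3 distal ones, and the conditions differed little within a part. Proximal over distal, the log2 difference was -0.95 in dKO, -1.05 in RA and -0.52 in control. The limma estimate was -0.84 (SE 0.18, adjusted p = 0.199). Its adjusted p was 0.0175 without the control arrays and 0.192 without the dKO arrays. The summed signal of surface ectoderm markers had the same order between parts. It was 15152 proximally and 23061 distally in dKO, 12197 and 16898 in RA, and 13598 and 22889 in control. Single markers did not all share it: Krt19, Krt5, Krt14 and Krt18 were higher proximally in RA, and Krt19 also in control. In RA Krt19 had 855 proximally and 360 distally, and Cdh1 had 716 and 1864. All 13 of these markers were above the floor on every array. Fewer ectodermal cells and less RNA per cell cannot be told apart in such samples, and the part of the markers in the Wnt3 values was not tested.

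Rspo3 (chr10:29453106-29535867), an R-spondin that amplifies WNT signals, was lower in dKO and in RA than in control. It had signals of 335 proximally and 320 distally in dKO, 436 and 211 in RA, and 792 and 793 in control. The 4 dKO and RA arrays were all below both control arrays, and the parts lay within 1.05-fold of each other in dKO and control but not in RA, where the proximal part was 2.06-fold higher. Against control, the signal was 2.37-fold lower proximally and 2.48-fold lower distally in dKO, and 1.82-fold and 3.75-fold lower in RA. The limma estimate was -1.28 for dKO (SE 0.32, adjusted p = 0.124) and -1.39 for RA (SE 0.32, adjusted p = 0.127). Both RA and dKO were set against the same 2 control arrays, so the 2 estimates share them.

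For Rspo3 the limma call depended on the arrays in the fit. Without both RA arrays the dKO estimate was unchanged at -1.28 with an adjusted p of 8e-05, and without the dKO arrays the RA estimate was -1.39 with 0.00621. Without the proximal RA array alone, the RA estimate was -1.89. That estimate rests on 1 RA array, which the fit matches exactly, so no p is given for it. A second probe set for Rspo3 was at or below the floor on all 6 arrays and gave no measurement.

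Rspo2 (chr15:43020788-43171594), the R-spondin expressed in the apical ridge and required for distal limb outgrowth in the mouse, was lowest in the proximal RA array. Its signal was 461 proximally and 504 distally in dKO, 192 and 594 in RA, and 577 and 932 in control. Within each part the control array was the highest. The proximal RA array was 3.01-fold below proximal control and the distal RA array 1.57-fold below distal control, where dKO was 1.25-fold and 1.85-fold lower. The limma estimate was -1.12 for RA (SE 0.36, adjusted p = 0.238) and -0.61 for dKO (SE 0.36, adjusted p = 0.688). Without the dKO arrays the RA value passed (adjusted p = 0.047), and without both RA arrays the dKO value did (adjusted p = 0.0259). Without the proximal RA array the RA estimate, which then rests on 1 RA array, was -0.51. A second probe set was at or below the floor on all arrays, and the mean log2 signal over both probe sets, taken before the floor was set, gave proximal differences of 0.27 in RA and 0.68 in dKO. The second probe set, below the floor, had signals of 38.8 on the proximal dKO array, 52.8 on the proximal RA array and 12.1 on the proximal control array.

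The summed signal of the 12 apical ridge genes was, like Rspo2, lowest on the proximal RA array and highest on the distal control array. It was 3002 proximally and 4595 distally in dKO, 1036 and 5243 in RA, and 2443 and 7804 in control. On the proximal RA array 7 of the 12 were at or below the floor, against 5 on the proximal control array and 2 to 4 on the others, and Dlx6 was so on all arrays. In distal dKO 3 of the 10 measured ridge genes were 2-fold lower than in distal control (Fgf4, Fgf9 and Fgf8) and 0 higher. Of all genes 0.524% were lower and 5.32% higher there. The ridge growth factor Fgf4 had a distal signal of 104 in dKO, 1431 in RA and 2141 in control. In the same order, Sp8 had 1380, 1078 and 1550, and Dlx5 had 238, 112 and 246. The part of ridge tissue in the Rspo2 values was not tested.

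The other R-spondin genes, read from a wider list of WNT genes, took a different course from Rspo3 in dKO. Rspo1 had signals of 515 proximally and 277 distally in dKO, 129 and 14.6 in RA, and 54.4 and 24.2 in control. Both control arrays and the distal RA array were below the floor for Rspo1, and both dKO arrays were well above it. Rspo1 was at least 8.05-fold higher proximally and at least 4.65-fold higher distally in dKO, and it rose in limma (log2 2.61, SE 0.27, adjusted p = 0.0096). That call was lost with the floor at the 25th percentile (adjusted p = 0.0741) and after quantile normalization (adjusted p = 0.0548). Because both control values are set to the floor, they hold no disagreement of their own, which can make this p too small.

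Rspo4 had signals of 1497 proximally and 1577 distally in dKO, 983 and 1163 in RA, and 923 and 519 in control. It was lowest on the distal control array, which the distal dKO array exceeded 3.04-fold and the distal RA array 2.24-fold. In the proximal part the dKO array exceeded control 1.62-fold and the RA array 1.07-fold. The limma effect of dKO on Rspo4 did not pass (adjusted p = 0.116). Of the 4 R-spondin genes, Rspo1 and Rspo4 were therefore higher and Rspo2 and Rspo3 lower in both parts of dKO, on their brightest probe sets. For Rspo2 in proximal dKO the difference was only 1.25-fold, and the mean over its probe sets gave a log2 difference of 0.68.

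**Figure D3:**
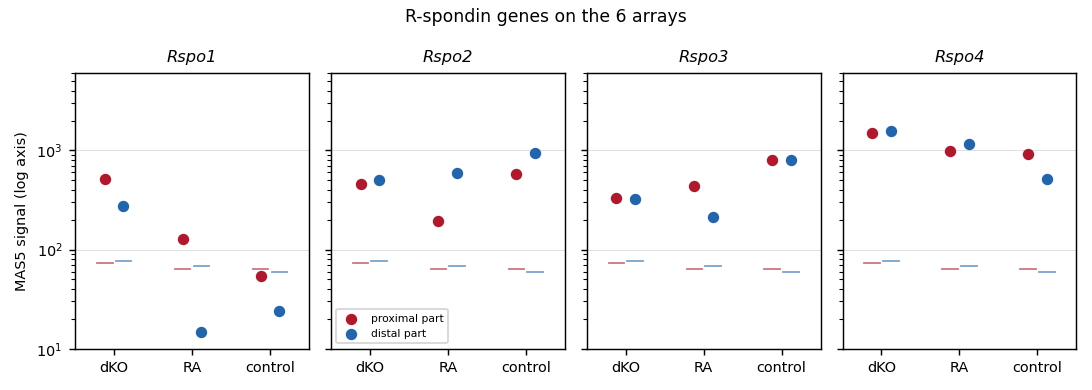
MAS5 signal on a log axis of Rspo1, Rspo2, Rspo3 and Rspo4 in dKO, RA and control buds (left to right), proximal in red and distal in blue, with 1 array per point and short lines at the array floors. Rspo1 is above the floor in both dKO arrays, at 515 and 277, and below it in both control arrays, where Rspo3 reaches 792 and 793.

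Sfrp1 (chr8:23411383-23449632), a secreted protein that binds WNT ligands, marked the proximal bud and was high in the distal part of dKO. Its signal was 2999 proximally and 1820 distally in dKO, 3479 and 377 in RA, and 2016 and 392 in control. The distal dKO array reached 4.65 times the distal control array and lay near the proximal control array, while the distal RA array equalled distal control to within 1.04-fold. In the proximal part, dKO was 1.49-fold and RA 1.73-fold above control. Proximal over distal, the fold was 1.65 in dKO, 9.24 in RA and 5.15 in control.

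All 5 probe sets of Sfrp1 were higher in dKO than in control in both parts, between 0.57 and 0.72 on the log2 scale proximally and between 0.75 and 2.86 distally. For 3 of the 5, the distal control and distal RA arrays were below the floor, so their distal differences are bounds. On the proximal RA array 4 of 5 probe sets were higher than control and 1 lower (-0.03 to 0.79). On the distal RA array the 2 measured probe sets were lower (-0.28 and -0.06). Limma gave an estimate of 1.4 for dKO (SE 0.51, adjusted p = 0.339), 0.37 for RA (SE 0.51, adjusted p = 0.74) and 2.1 for proximal over distal (SE 0.42, adjusted p = 0.185). The additive model allows 1 effect for both parts, which the Sfrp1 values do not share, and a separate effect for each part leaves no residual to test with. Without both RA arrays the dKO estimate passed (adjusted p = 0.00142) and so did the part estimate of 1.54 (adjusted p = 0.00253). That fit also allows 1 dKO effect for both parts. It has 1 residual degree of freedom and rests mostly on variance pooled over genes.

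**Figure D4:**
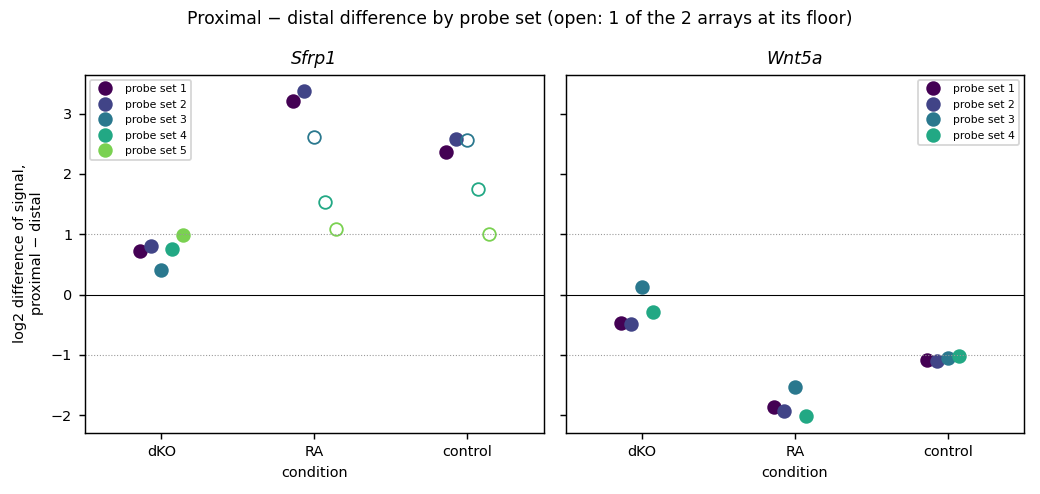
Log2 difference of signal, proximal over distal, for each of the 5 probe sets of Sfrp1 (left) and the 4 of Wnt5a (right) in dKO, RA and control; open points are bounds, with 1 array at its floor. Sfrp1 lies between 0.40 and 0.98 in dKO and reaches 3.38 in RA and 2.58 in control, and Wnt5a lies between -0.49 and 0.12 in dKO and between -2.02 and -1.02 in the other conditions.

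Muscle precursors migrate into the limb bud at this stage, and their markers were read beside Sfrp1. The summed signal of 5 muscle precursor markers was 5659 proximally and 2433 distally in dKO, 4082 and 802 in RA, and 3967 and 1232 in control. That sum was higher in dKO than in control in both parts, as Sfrp1 was, but its members did not all share that order. Myf5, a myogenic factor, had signals of 0.808 and 0.701 in dKO, 104 and 27.8 in RA, and 103 and 34.9 in control, of which only the proximal RA and proximal control values are above the floor. Pax3, a factor of muscle precursors, had 1179 and 775 in dKO, 552 and 110 in RA, and 1096 and 218 in control. Lbx1, a factor of migrating muscle precursors, had signals of 2157 and 456 in dKO, 1824 and 79 in RA, and 1355 and 227 in control. Of the 5 markers, 1 was at or below the floor on each array but distal control, where 2 were. The summed signal of 12 limb mesenchyme genes varied less, with 29005 and 27985 in dKO, 21661 and 25495 in RA, and 32483 and 30544 in control. The part of these cell types in the Sfrp1 values was not tested.

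Sfrp2 (chr3:83765750-83774314), the related inhibitor of limb mesenchyme, was nearly even. Its signal was 1170 proximally and 1295 distally in dKO, 1225 and 714 in RA, and 1055 and 1036 in control. The distal RA array was the only low one, 1.45-fold below distal control, and the dKO values of 0.15 and 0.32 on the log2 scale were -0.04 and -0.03 after division of each array by its median. Limma gave 0.24 for dKO (SE 0.25, adjusted p = 0.938) and -0.16 for RA (SE 0.25, adjusted p = 0.768). Without the proximal RA array the RA estimate, which then rests on 1 RA array, was -0.58.

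Dkk1 (chr19:30545876-30549496), an inhibitor of the canonical branch that is itself switched on by beta-catenin, differed by condition and not by part on its brighter probe set. It had signals of 450 proximally and 439 distally in dKO, 225 and 213 in RA, and 288 and 278 in control. Both dKO arrays were above both control arrays, and both RA arrays were below them. The fold over control was 1.56 and 1.58 in dKO. The RA arrays were 1.28-fold and 1.31-fold lower. Limma gave 0.65 for dKO (SE 0.23, adjusted p = 0.31) and -0.37 for RA (SE 0.23, adjusted p = 0.435), and without both RA arrays the dKO value passed (adjusted p = 0.0273). A dimmer Dkk1 probe set was above the floor on 3 arrays, with signals of 96.2 and 105 in dKO and 128 in distal RA. It did not share the low distal RA value of the brighter one. On the dimmer probe set, distal RA was at least 2.16-fold above distal control and at least 2.04-fold above proximal RA.

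Lef1 (chr3:131110297-131224357), a nuclear partner of beta-catenin, had the same order of conditions as Dkk1. Its signal was 2937 proximally and 2857 distally in dKO, 1516 and 1829 in RA, and 2377 and 2276 in control. The dKO arrays were the highest and the RA arrays the lowest. The differences were small, 1.24-fold and 1.25-fold higher in dKO and 1.57-fold and 1.24-fold lower in RA. Limma gave 0.32 for dKO (SE 0.16, adjusted p = 0.566; 0.0273 without both RA arrays) and -0.48 for RA (SE 0.16, adjusted p = 0.235). After division of each array by its median, which moved the median of all genes in distal dKO to -0.35, the dKO difference was 0.11 proximally and -0.03 distally for Lef1, against 0.45 and 0.30 for Dkk1. A second Lef1 probe set was dim, with 105 on the distal dKO array, 67.3 on the proximal RA array, 63.8 on the distal control array and the rest below the floor, so it did not show the lower RA values. Over the 6 arrays the log2 signals of Dkk1 and Lef1 had a Pearson r of 0.92, as a description of arrays that share conditions.

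Axin2 (chr11:108917828-108950783), the feedback gene widely used as a readout of canonical WNT activity, varied least. Its signal was 2765 proximally and 3182 distally in dKO, 2149 and 2906 in RA, and 2843 and 3518 in control. The distal array was above the proximal one in each condition, and the proximal RA array was the lowest. The dKO arrays were 1.03-fold and 1.11-fold below control, and the RA arrays 1.32-fold and 1.21-fold below it. Limma gave -0.09 for dKO (SE 0.14, adjusted p = 0.993), -0.34 for RA (SE 0.14, adjusted p = 0.297) and -0.31 for proximal over distal (SE 0.12, adjusted p = 0.465). A second Axin2 probe set was above the floor on the distal control array alone.

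The sequences before the start sites of Dkk1, Lef1 and Axin2 are shown as a description. These genes were picked with their signals known, and a link between the sequences and the order of conditions was not tested. RefSeq promoters on GRCm38.p6 were matched for 6 of the 10 genes, and the 250 bases before each start were searched on both strands for CTTTGA and CTTTGT, core letters bound by TCF and LEF factors, which do not overlap each other here. The window of Dkk1 (chr19:30549497-30549746, minus strand) held 3 matches, 174, 117 and 98 bases before the start. Of the 4 Lef1 start sites, the window of the one farthest downstream (chr3:131156044-131156293, plus strand) held 3 matches and the other 3 windows 0. The Lef1 window with matches lies inside the annotated gene. The window of Axin2 (chr11:108920099-108920348, plus strand), which also lies inside its annotated gene, held 0. Matches are in capitals, 5′ to 3′ in the direction of transcription.
Dkk1: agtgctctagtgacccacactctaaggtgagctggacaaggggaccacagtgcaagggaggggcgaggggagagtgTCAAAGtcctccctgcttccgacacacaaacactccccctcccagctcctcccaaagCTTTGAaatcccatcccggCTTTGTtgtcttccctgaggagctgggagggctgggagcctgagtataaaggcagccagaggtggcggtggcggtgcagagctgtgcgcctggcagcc
Lef1: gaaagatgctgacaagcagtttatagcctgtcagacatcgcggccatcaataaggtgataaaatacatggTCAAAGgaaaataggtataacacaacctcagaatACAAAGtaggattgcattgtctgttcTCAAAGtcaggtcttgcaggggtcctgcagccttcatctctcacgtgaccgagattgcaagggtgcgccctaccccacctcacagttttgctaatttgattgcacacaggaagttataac
Axin2: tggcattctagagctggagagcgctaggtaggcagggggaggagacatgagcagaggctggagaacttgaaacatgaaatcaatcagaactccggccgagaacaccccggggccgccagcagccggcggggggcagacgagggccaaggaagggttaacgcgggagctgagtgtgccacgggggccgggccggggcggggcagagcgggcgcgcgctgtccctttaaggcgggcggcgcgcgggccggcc

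The windows of Wnt3, Sfrp2 and Tcf7 held 0 matches, and those of Sfrp2 and Tcf7 lie inside the annotated genes. Of 32851 such windows in the RefSeq table, 27.6% held at least 1, so a match is common. The Axin2 window had a GC content of 69.2% and 24 CpG dinucleotides, that of Dkk1 60.8% and 6, and that of Lef1 44.8% and 5, against medians of 52.4% and 6 over all windows. A match is a string of letters and no measured site.

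Beyond the 10 genes, 98 further WNT genes were listed, of which 96 had a probe set and 79 were above the floor on at least 1 array. Among those measured in dKO, 4 of 75 passed 2-fold upward proximally and 7 of 77 distally, with 0 downward in either part. Of all genes 4.07% and 5.32% were higher, and 0.363% and 0.524% lower. Their medians were 0.08 and 0.05, against 0.02 and 0.01 over all genes. Higher in both parts were Rspo1, Dkk3, the intestinal homeobox gene Cdx1 and the corepressor Tle2, where 2.93% of all genes were. In limma 1 of the 79 rose for dKO, Rspo1, and 0 fell, where 2.21% of all genes rose and 0.115% fell. Dkk3, a divergent member of the Dickkopf family, had signals of 324 and 416 in dKO, 146 and 195 in RA, and 131 and 202 in control (limma dKO adjusted p = 0.0618).

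In RA, 8 of 77 of these genes were higher proximally and 8 lower, and 6 of 76 were higher distally and 3 lower. The shares of all genes were 3.69% higher and 6.8% lower proximally, and 2.16% and 2.13% distally. Their medians were -0.08 and -0.05, against 0.01 and -0.04 over all genes. Those 2-fold in the same direction in both parts were Wnt7a and Sp5, which were lower, and Wnt9b and Myc, which were higher; of all genes, 0.992% were lower and 0.893% higher in both parts. Wnt7a, the dorsal ectoderm ligand, had signals of 266 and 802 in dKO, 130 and 435 in RA, and 306 and 1093 in control, and was 2.36-fold and 2.52-fold lower in RA (limma adjusted p = 0.0743). Sp5, a beta-catenin target that encodes a zinc finger factor, had 316 and 287 in dKO, 70.9 and 30.7 in RA, and 297 and 145 in control (limma RA adjusted p = 0.0832). It was 4.19-fold lower proximally and at least 2.13-fold lower distally. Wnt9b was 2.89-fold and 2.08-fold higher in RA, and Myc at least 2.12-fold and 2.96-fold.

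Single parts held some of the largest differences of the wider list. Cdx1 was 5.39-fold higher in distal RA than in distal control, with signals of 155 and 175 in dKO, 110 and 412 in RA, and 60.8 and 76.5 in control. Tle2 was 5.08-fold higher in proximal RA, with 227 and 199 in dKO, 504 and 116 in RA, and 99.3 and 79.8 in control. Frzb, an SFRP family inhibitor, was 3.57-fold lower in proximal RA, with 1241 and 1339 in dKO, 564 and 1918 in RA, and 2014 and 2390 in control. In limma 0 of the 79 genes passed an adjusted p of 0.05 for RA, where 0.543% of all genes did.

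Between the parts, Wnt7a and the receptor gene Ror1 differed 2-fold in all 3 conditions, in opposite directions. Among all genes 0.192% were lower and 0.219% higher proximally in all 3 pairs. Wnt7a was 3.02-fold lower proximally in dKO, 3.35-fold in RA and 3.57-fold in control. Ror1, which encodes a receptor for WNT5A, was 2.15-fold higher proximally in dKO, 2.21-fold in RA and 3.33-fold in control. Its signal was 470 and 219 in dKO, 424 and 192 in RA, and 348 and 104 in control. Limma called neither for position (adjusted p = 0.0747 for Wnt7a and 0.131 for Ror1).

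For the 6 genes whose log2 signal spanned at least 1 over the arrays, the genes of most similar course were found by Pearson r over the 6 arrays. Such values describe arrays that share conditions and tissue, and they were the highest among 3252 genes that met the same condition. Wnt5a was most like Spry4 (r = 0.983), Bmp4 (0.983) and Fry (0.982), and Rspo2 most like Zic2 (0.996), Spry2 (0.985) and Nt5dc1 (0.985). Spry4 and Spry2 encode feedback inhibitors of FGF signalling. Spry4 had signals of 461 and 837 in dKO, 218 and 1216 in RA, and 710 and 1342 in control. Sfrp1 was most like Crnde (0.992), Hoxb5os (0.982) and Hs3st3a1 (0.982). Dkk1 was most like Dok1 (0.997), Ppfia4 (0.996) and Dpysl5 (0.995). Wnt3 was most like Emp1 (0.967), the epithelial cadherin gene Cdh1 (0.947) and Clasp2 (0.936). For Rspo3 the closest were less alike: Meox2 (0.89), Hsd11b2 (0.875) and Rmi1 (0.871). Meox2, a homeobox gene, had signals of 519 and 385 in dKO, 345 and 330 in RA, and 1069 and 1271 in control.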

How the data were processed

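RNA was isolated on RNeasy Micro columns, per the labels' protocols, and its labelled cRNA was read on Affymetrix arrays. The deposited values are MAS5 signal intensity on a linear scale, per the submitters' processing notes, which give no version. In the table every array has a mean of 500 once 2% of the values at each end are set aside. There are no detection calls, and the number of arrays limits the precision.

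Of 45101 probe sets, 34958 had 1 gene symbol, 932 several and 9211 no listed gene; 34754 matched RefSeq by gene ID. Each gene was read from its brightest probe set (mean of log2 signal over the arrays), and signals under the array median were raised to it before log2. Pairs of arrays were compared for genes measured above that floor on either one, and folds that end at a floor are written "at least". The fit used limma 3.58.1 in R 4.3.3 with a trended prior of 4.64 degrees of freedom and Benjamini-Hochberg adjustment, and was tested on simulated data whose noise had the moderated spread; that checks the computation and gives no error rate for these arrays. "Rose" is used only past its threshold. Alternatives were other floors, scalings, probe set rules, priors and fits without a pair of arrays. The named genes were all 10, plus further WNT genes by fixed rules: 2-fold in both parts or in all 3 pairs, past the limma threshold, or among the 2 largest differences each way in a comparison; not all that met the last rule are described. The genes and lists were chosen with earlier results of these data known.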

Additional observations from a re-analysis of the deposited data

How the results depend on the processing

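With 1 array per group, differences between arrays have no spread, and fits without a pair of arrays have 1 residual degree of freedom and rest mostly on variance pooled over genes. No paired analysis was possible because each group has 1 array, so no replicate numbers pair samples; the proximal and distal arrays of a condition are matched by the condition term of the fit itself. Of the 63 recomputed counts of called members, 45 stayed within 1.5 times the reported count. Every reported limma count, and the count between the parts of dKO, was 0. Recomputed counts that stayed at 0 are among the 45 and say little about stability. In proximal RA, 1 gene in place of 2 was 2-fold lower after quantile normalization (Rspo2), with the mean over probe sets (Rspo3) and with log2(signal + 16) (Rspo2). Between the parts of RA, 3 genes in place of 5 were 2-fold (1 higher and 2 lower proximally) with the mean over probe sets and with log2(signal + 16). In distal dKO, 4 in place of 2 were 2-fold (1 higher and 3 lower) after division of each array by its median, Wnt5a and Rspo2 being the additions; that scaling moved the median of all genes there to -0.35, and to -0.17 in proximal dKO, -0.24 in distal RA, 0.17 between the parts of RA and -0.10 between the parts of control. The proximal RA value of Rspo2 became 0.27 with the mean over probe sets, where the second probe set, below the floor on every array, was averaged in before the floor was set. In limma the dKO count was 1 (Rspo3) with the mean over probe sets. Without the filter on low values it was 2 for dKO, 2 for RA and 4 for part. Genes held at the floor then set the pooled variance, with 7656 of 18194 genes called for dKO, 1245 for RA and 768 for part. Leaving out arrays gave 6 for dKO, 2 for RA and 2 to 3 for part. Of 12148 genes, 1448 were called for dKO without both RA arrays and 537 for RA without the dKO arrays. For part, 296 were called without the control arrays and 354 without the dKO arrays. The fit without the proximal RA array was chosen after seeing the data. Its RA effect rests on 1 RA array, so no RA count is given for it. Over all genes, the dKO calls numbered 283 as reported, 168 with the lower floor, 87 after quantile normalization, 115 after division by the median and 180 without part as a term; the RA calls numbered 66, 32, 15, 35 and 20 in the same order. The cause of the other differences was not tested. The effects against control could not be fitted without the control arrays.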

Other observations

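Of the 19 WNT ligand genes, 9 were at or below the floor on all 6 arrays: Wnt1, Wnt2, Wnt2b, Wnt3a, Wnt8a, Wnt8b, Wnt10a, Wnt10b and Wnt16. Among all genes, 4.07% were 2-fold higher and 0.363% lower in proximal dKO, 5.32% and 0.524% in distal dKO, 3.69% and 6.8% in proximal RA, and 2.16% and 2.13% in distal RA, so a count of 0 in lists as short as the following is near those shares. The 10 measured ligands had 0 members 2-fold higher or lower in dKO in either part. Of 15 measured genes of the beta-catenin pathway core, 0 were 2-fold in dKO in either part or in distal RA, and in proximal RA 1 was higher, Gsk3b, and 1 lower, Dvl2. The 14 measured receptor genes had 0 members 2-fold in proximal dKO or proximal RA, and in distal dKO 2 were higher, Fzd8 and Ror1. The planar cell polarity list had 0 of 11 at 2-fold in dKO. In proximal RA 2 of 11 were higher, Celsr1 (signal 625 in proximal RA and 213 in proximal control) and Prickle2 (1100 in proximal RA and 434 in proximal control). Distal RA had 306 for Celsr1 and 289 for Prickle2, against 282 and 394 in distal control.

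Rnf43, which encodes a ligase that removes Frizzled receptors and is a beta-catenin target, was higher distally in each condition. Its signal was 35.5 proximally and 166 distally in dKO, 47.4 and 84.2 in RA, and 55.2 and 195 in control, with all 3 proximal arrays below the floor. It was 2.32-fold lower in distal RA than in distal control.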
